A study of Mus musculus with 32 samples.

Results

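The uncapped RNA of a neural tissue was set against that of a hepatic tissue, gene by gene, with mice of both Ftsj1 genotypes pooled. The deposited table named for liver holds neural transcripts and the table named for brain holds hepatic ones, so both are called here by their deposited names, liver-named and brain-named. A gene was compared where the authors' mean normalized count was at least 100 in at least 1 of these 2 tables, which kept 16041 of the 55289 genes named in each table. Each mean was divided by the sum of its table, and the ratio of the 2 shares, liver-named over brain-named, is given on the log2 scale. Positive values are therefore higher in the liver-named table and negative values higher in the brain-named table.

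The series compares Ftsj1_DF mice, labelled as deficient in the tRNA methyltransferase gene Ftsj1, with wild-type (WT) mice, and the labels say nothing more of the allele. Whole liver, brain, heart and kidney came from the same 6 male mice aged 4 months, 3 per genotype, without treatment, and whole spleen from 8 further males of that age, for 32 libraries of 14 mice. The 6 mice are a set of 4 brothers and a set of 2 brothers. Each library was made from the poly(A) RNA in 5 µg of total RNA: molecules without a cap were ligated to an adapter, and a short tag next to that adapter was sequenced. Every table holds 1 mean per gene, which the authors took over all libraries of the organ, so no values of single mice and no test of a difference between the 2 tables can be given. The sum of all means was 68138128 for the liver-named and 73405489 for the brain-named table. The depth of single libraries is not given in the sources used here, and all libraries carry the same batch label.

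Degradome sequencing of this kind reads the 5′ ends of RNA molecules that have no cap. In animal cells most messenger RNA is made with a cap, and its loss opens the body of the RNA to degradation from the 5′ end. A tag count therefore follows both how much of a transcript is made and how much of it is present as uncapped pieces. Neurons are known for transcripts of synaptic release, electrical excitability and peptide signalling. Hepatocytes are known for plasma proteins and for enzymes of detoxification, urea synthesis and glucose output. In whole tissue, fewer cells of a type and less RNA per cell cannot be told apart.

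The labelled organs were checked against defining markers. The authors' mean for Snap25, a protein of synaptic vesicle fusion, was 27106 normalized counts in the liver-named table, 122 in the brain-named, 105 in the heart-named, 148 in the kidney-named and 114 in the spleen-named table. Camk2a, a kinase of excitatory synapses, had 16282 normalized counts in the liver-named table, 109 in the brain-named, 308 in the heart-named, 120.0 in the kidney-named and 116 in the spleen-named table. Both were high in the liver-named table alone among the 5. For Alb, the serum albumin gene, the shares of the table sums were 0.122% in the liver-named, 22.3% in the brain-named, 0.0475% in the heart-named, 0.115% in the kidney-named and 0.119% in the spleen-named table. Alb was thus highest in the brain-named table and lay between 0.0475% and 0.122% of the sum in each of the others. Of 6 neuron markers, 5 had their highest share in the liver-named table and Nefl was listed at 0 in all 5 tables, while all 6 hepatocyte markers had theirs in the brain-named table. All 3 markers each of oligodendrocytes and astrocytes and 2 of 3 of microglia were highest in the liver-named table, and all 3 of Kupffer cells, the macrophages of liver, in the brain-named table. Heart, kidney and spleen markers had their highest shares in the tables of their own names wherever they were above 0. Ftsj1 itself averaged 1265 normalized counts in the liver-named and 1221 in the brain-named table, a log2 ratio of 0.16, and in the authors' deposited tables its log2 fold change by genotype was -3.38 in the liver-named table (adjusted p = 0.000176).

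**Figure D1:**
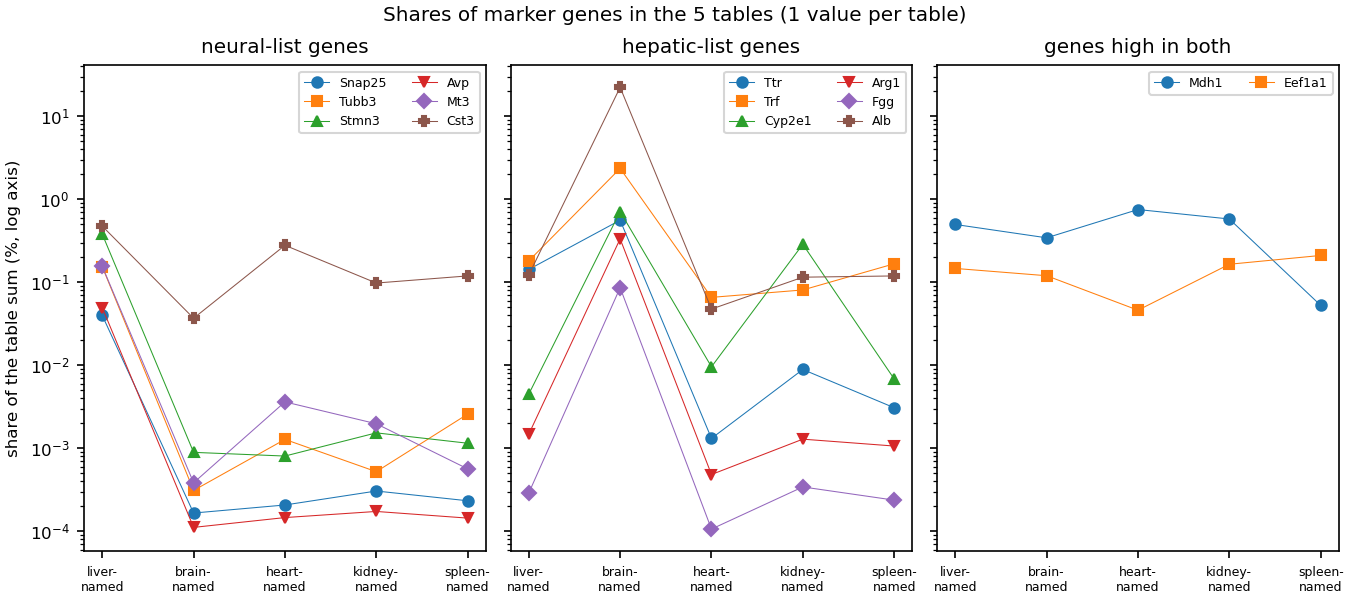
Shares of 14 genes in the liver-named, brain-named, heart-named, kidney-named and spleen-named tables, in percent of each table's sum on a log axis, with 1 point per gene and table. Neural-list genes peak in the liver-named table and hepatic-list genes in the brain-named table, while Mdh1 and Eef1a1 are high in both.

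The stretches of DNA just before the start sites of 4 genes are shown as examples of promoters from each side. They are the 250 bases upstream of the RefSeq start in the mouse assembly GRCm38.p6, printed 5′ to 3′ along the gene's own strand. Bcan, a proteoglycan of the brain's extracellular matrix, and Pcsk1n, an inhibitor of peptide processing enzymes, stand for the genes high in the liver-named table. Alb and Serpina1e, a serum antiprotease gene, stand for those high in the brain-named table. Capitals mark 4 motifs searched on both strands. The letters GTTAAT occur in binding sites of the hepatic factor HNF1. The other three are TATAAA as a core promoter element, the box spelled CCAAT, and the letters GGGCGGG, which the general factor Sp1 binds. Sites of different motifs may overlap, as they do in Serpina1e.
Bcan (chr3:88000357-88000606, minus strand): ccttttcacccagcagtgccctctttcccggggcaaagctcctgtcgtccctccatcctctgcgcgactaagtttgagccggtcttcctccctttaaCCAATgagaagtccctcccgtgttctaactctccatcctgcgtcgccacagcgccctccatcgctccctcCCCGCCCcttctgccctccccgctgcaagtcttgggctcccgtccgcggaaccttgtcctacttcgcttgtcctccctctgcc
Pcsk1n (chrX:7919572-7919821, plus strand): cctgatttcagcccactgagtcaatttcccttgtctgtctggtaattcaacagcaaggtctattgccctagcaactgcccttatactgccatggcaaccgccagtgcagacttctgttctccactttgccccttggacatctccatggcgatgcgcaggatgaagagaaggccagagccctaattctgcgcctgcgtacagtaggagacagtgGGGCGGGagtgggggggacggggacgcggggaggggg
Alb (chr5:90460620-90460869, plus strand): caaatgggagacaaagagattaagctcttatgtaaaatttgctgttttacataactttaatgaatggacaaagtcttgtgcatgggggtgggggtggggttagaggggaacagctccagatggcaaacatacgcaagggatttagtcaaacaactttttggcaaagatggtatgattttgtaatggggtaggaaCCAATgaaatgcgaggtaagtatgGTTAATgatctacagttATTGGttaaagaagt
Serpina1e (chr12:103956898-103957147, minus strand): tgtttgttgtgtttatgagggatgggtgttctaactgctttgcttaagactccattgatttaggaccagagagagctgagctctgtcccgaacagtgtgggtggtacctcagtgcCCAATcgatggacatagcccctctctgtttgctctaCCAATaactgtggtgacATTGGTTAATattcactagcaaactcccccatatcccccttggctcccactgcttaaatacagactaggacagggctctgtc

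The windows of Bcan and Pcsk1n hold 16 and 9 CpG dinucleotides and a GC box each, and no GTTAAT. Those of Alb and Serpina1e hold 2 CpG dinucleotides each, and both hold GTTAAT and CCAAT. The 4 windows are examples and not typical of their sides. Among windows of genes at least 4-fold higher in the brain-named table, 10.5% held GTTAAT, beside 4.76% for all compared genes. Their median was 5 CpG dinucleotides, beside 14 for all compared genes. Among windows of genes at least 4-fold higher in the liver-named table, 38.5% held GGGCGGG, beside 38.6% for all compared genes. Their median was 13 CpG dinucleotides, beside the same 14.

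Among the genes compared, 5729 (35.7%) had a share at least 4-fold higher in the liver-named table, 1345 (8.38%) had one at least 4-fold higher in the brain-named table, and 8967 lay within 4-fold. The median ratio over all 16041 genes was 1.38 on the log2 scale, 2.60-fold, so the typical gene took a larger share of the liver-named table. Counted relative to that median gene, 2762 genes were at least 4-fold higher on the liver-named side and 2487 on the brain-named side. The liver-named side thus held 81.0% of the genes past 4-fold on the share scale and 52.6% relative to the median gene. Ratios spanned -8.26 for Hrg, a plasma glycoprotein, to 9.87 for the noncoding transcript Dalir. Dalir averaged 298 normalized counts in the liver-named and 0.344 in the brain-named table, so its ratio rests on a mean near 0 and has an approximate standard error, described next, of 2.03. The gene 4930456G14Rik, with a mean of 115 in the liver-named table, was listed at 0 in the brain-named table and has no ratio.

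An approximate standard error of each ratio was taken from the authors' standard errors of the genotype fold change, halved in each table and combined. It covers the spread between libraries within each table, treats the tables as independent although they share mice, and is not a test of tissues. Its median was 0.34 and its 95th percentile 0.61 on the log2 scale, and 1 of the 7074 genes past 4-fold had a ratio below 2 such errors. Estimated for each genotype apart, 4871 of the 5729 liver-named genes (85.0%) and 1164 of the 1345 brain-named genes (86.5%) passed 4-fold in both genotypes. The direction was the same in both genotypes for 5726 and 1328 of them. These genes were chosen by the pooled ratio, and the genotype means were derived from the same pooled means. The choice thus fixes part of these counts and of the comparison with the standard error, and they are no replication.

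**Figure D2:**
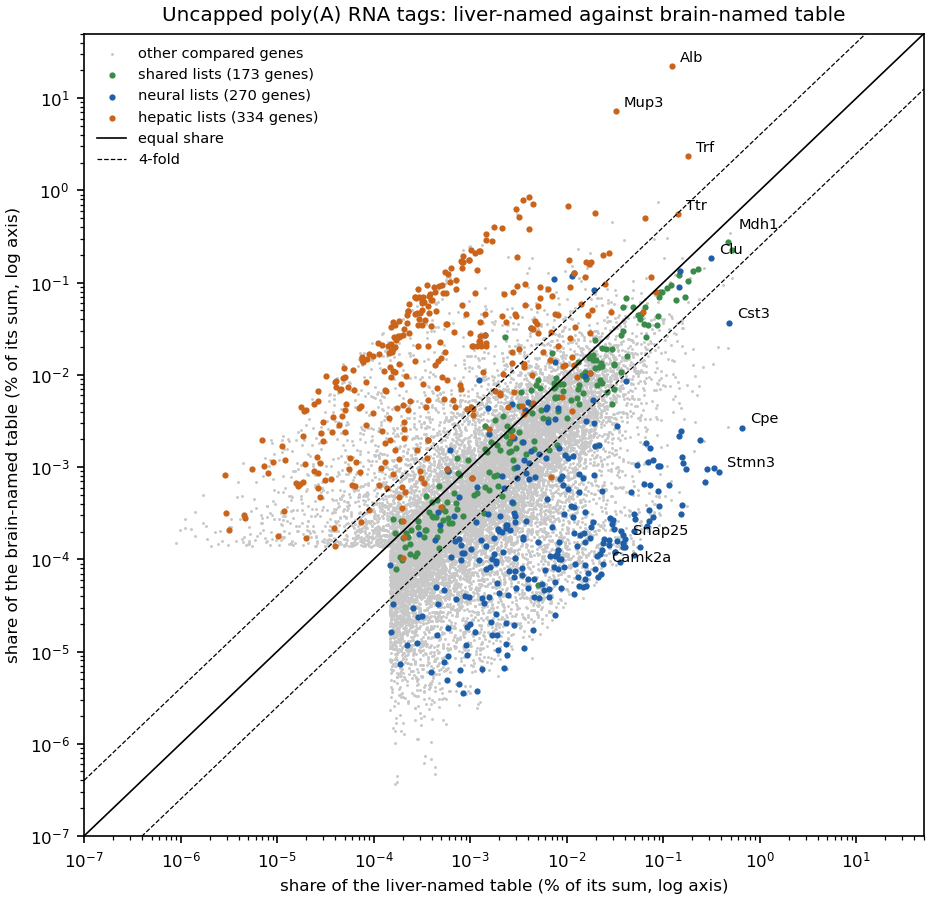
Share of the liver-named table (horizontal) against share of the brain-named table (vertical) for the 16041 genes compared, in percent of the table sum on log axes, with 1 point per gene. Genes of the neural lists lie mainly below the lower 4-fold line, those of the hepatic lists above the upper one, and those of the shared lists between the lines.

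The 2 tables differed in how many genes carried their tags. Alb alone made up 22.3% of the brain-named table, whereas the top gene of the liver-named table, Cpe, which trims peptide hormone precursors, made up 0.652%. The 10 highest genes held 4.86% of the liver-named and 36.9% of the brain-named sum. It took 763 genes to reach 50% of the liver-named sum and 62 genes to reach 50% of the brain-named sum. In the heart-named, kidney-named and spleen-named tables the same share took 118, 612 and 98 genes. Means of at least 100 were reached by 15152 genes in the liver-named table and by 12148 in the brain-named table. The 5729 genes on the liver-named side held 54.2% of the liver-named sum and 4.41% of the brain-named sum. The 1345 on the brain-named side held 1.90% of the liver-named sum and 64.4% of the brain-named sum. When the 10 highest genes of each table were left out of its sum, 4111 genes passed 4-fold on the liver-named side and 1744 on the brain-named side.

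**Figure D3:**
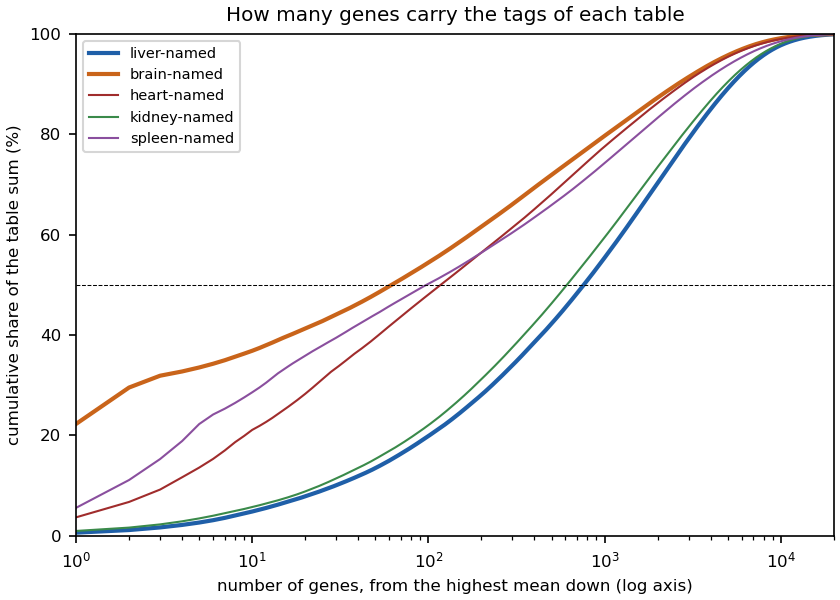
Cumulative share of the table sum (percent) against the number of genes counted from the highest mean down (log axis), with 1 line for each of the 5 tables. The dashed line marks 50%, reached by 763 liver-named and by 62 brain-named genes.

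The largest ratios on each side were taken from genes whose higher mean was 5000 or more. On the liver-named side Tubb3, the neuronal beta tubulin, averaged 104893 normalized counts in the liver-named and 228 in the brain-named table (log2 ratio 8.95, approximate standard error 0.40). Next came Ttc9b at 35126 in liver-named and 79.5 in brain-named and Bcan at 120379 in liver-named and 277 in brain-named. Stmn4 and Stmn3, which destabilise microtubules in neurons, had log2 ratios of 8.86 and 8.73. Avp, the hypothalamic hormone vasopressin, averaged 33707 in liver-named and 81.7 in brain-named, and Chga, a core protein of secretory granules, 38759 in liver-named and 98.5 in brain-named. Cend1, which promotes neuronal differentiation, Mt3, the brain metallothionein, Uchl1, an abundant neuronal ubiquitin hydrolase, Syt4, a synaptotagmin, and Cmtm5 had ratios between 8.60 and 8.71.

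On the brain-named side Fgg, the fibrinogen gamma chain, averaged 197 normalized counts in the liver-named and 63078 in the brain-named table (log2 ratio -8.22, approximate standard error 0.51). Its partner Fgb had a log2 ratio of -7.97. Adh1, an alcohol dehydrogenase, averaged 196 in liver-named and 59037 in brain-named, and Cyp4a14, a fatty acid hydroxylase, 241 in liver-named and 68346 in brain-named. Cfi, a protease that inactivates complement, and Mbl2, a lectin that starts complement activation, had ratios of -8.04 and -7.99. Apon, an apolipoprotein gene, stood at -8.03 and the betaine methyltransferase pseudogene Bhmt-ps1 at -8.07. The urinary protein genes Mup9 and Mup18 and the antiprotease gene Serpina1e also belong here, with ratios of -8.08, -7.98 and -7.90. The Mup, Serpina1, Cyp2c, Cyp2d and Ugt2b families and Bhmt with its pseudogene have members of related sequence, alike to differing degrees. A short tag may be assigned to the wrong member, so their single values are uncertain.

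Lists of genes were written for cell types and pathways of both sides. The 15 neural lists held 326 genes, of which 270 could be compared: 224 were at least 4-fold higher in the liver-named table, 8 at least 4-fold higher in the brain-named table and 38 within 4-fold. The 18 hepatic lists held 381 genes, of which 334 could be compared: 1 was at least 4-fold higher in the liver-named table, 280 in the brain-named table and 53 within 4-fold. Over all compared genes, 35.7% were at least 4-fold higher in the liver-named and 8.38% in the brain-named table. Those shares are the background for the counts of every list below. Medians were 5.35 for the neural and -5.33 for the hepatic genes, beside 1.38 for all genes. Together the neural lists made up 7.79% of the liver-named and 1.14% of the brain-named sum, and the hepatic lists 1.48% of the liver-named and 50.6% of the brain-named sum. Across all 44 lists 145 of 973 genes were not compared. Of these, 81 were listed at 0 in both tables, and 79 of the 81 in all 5, among them the neuronal Nefl, the microglial P2ry12, the hepatic Hamp and also the general translation factor Eif2s2. A value of 0 is for this reason given only as listed.

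**Figure D4:**
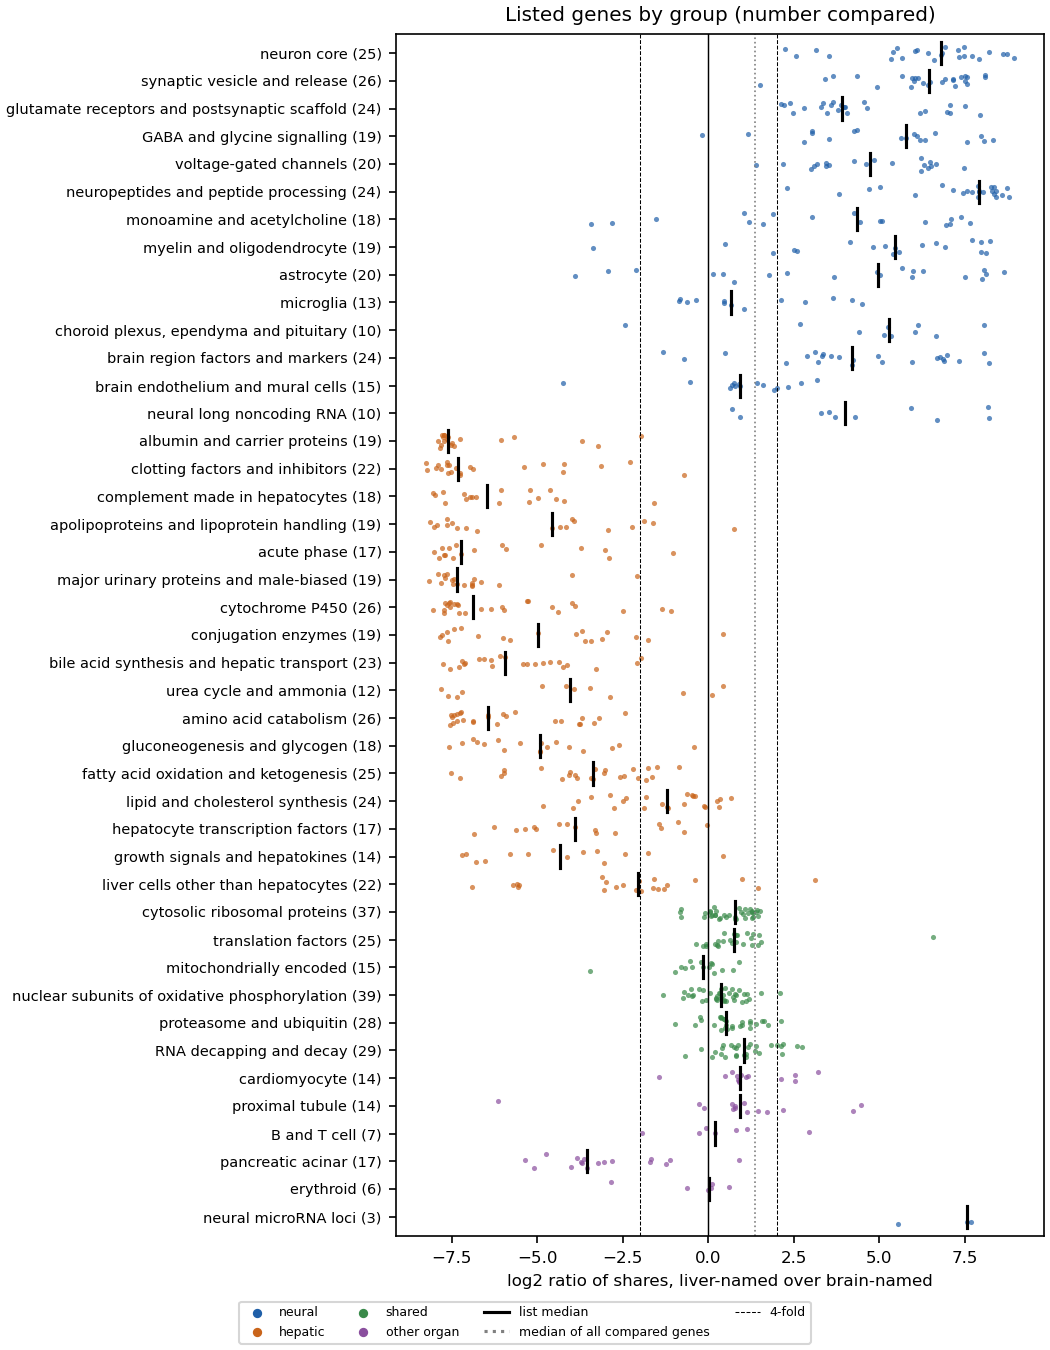
Log2 ratio of shares, liver-named over brain-named, for every compared gene of each list, with 1 row per list, 1 point per gene and a black bar at the list median. The neural rows lie mostly right of the 4-fold line and the hepatic rows mostly left of it, while the shared rows lie near 0 and left of the dotted median of all genes at 1.38.

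All 25 compared genes of the neuron core list were at least 4-fold higher in the liver-named table, with a median log2 ratio of 6.80. Stmn3 averaged 258638 normalized counts in the liver-named and 655 in the brain-named table, Uchl1 184584 in liver-named and 501 in brain-named, and the noncoding Snhg11 164056 in liver-named and 1440.0 in brain-named. Rtn1, a neuronal reticulon, and Nrgn, which binds calmodulin in dendritic spines, had ratios of 7.47 and 7.48. The smallest ratios of the list were those of Camk2b, a partner subunit of Camk2a, at 2.24 and of the RNA-binding protein gene Elavl4 at 2.58.

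Genes of the presynaptic side were close behind, with 25 of 26 at least 4-fold higher in the liver-named table and a median of 6.47. Rab3a, a GTPase of synaptic vesicles, averaged 107330 normalized counts in the liver-named and 952 in the brain-named table. Sv2a, a vesicle glycoprotein, and Cplx2, a complexin, had ratios of 8.11 and 8.10. Nsf, which takes used fusion complexes apart, stood at 6.06. Rims1, a scaffold of the active zone, was the gene within 4-fold, at 1.53.

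Glutamate receptor and scaffold genes were all 24 past 4-fold, but at a lower median of 3.92. Within the list the ratio differed widely: Gria2, an AMPA receptor subunit, stood at 7.53 and Nptxr, a pentraxin receptor, at 7.95, whereas Shank2, a scaffold of the postsynaptic density, stood at 2.13. For Shank2 the means were 2557 normalized counts in the liver-named and 629 in the brain-named table, and for Gria2 34443 in liver-named and 201 in brain-named. Of the GABA and glycine genes, 17 of 19 passed 4-fold, with a median of 5.78. Slc32a1, which loads GABA into vesicles, averaged 15291 in liver-named and 51.1 in brain-named. Gphn, which anchors inhibitory receptors, and Abat, which breaks GABA down, lay within 4-fold at 1.18 and -0.17. Both act outside neurons as well: Gphn in cofactor synthesis and Abat as a mitochondrial enzyme of liver.

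Among voltage-gated channels 19 of 20 passed 4-fold, with a median of 4.74. Kcnc1, a fast potassium channel, averaged 10498 normalized counts in the liver-named and 63.3 in the brain-named table and stood at 7.48, and Scn2a, a sodium channel of axons, stood at 6.66. Kcnd2, an A-type potassium channel, had the smallest ratio of the list at 1.40.

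Neuropeptide and peptide processing genes had the highest median of the neural lists, 7.91, with 24 of 24 compared genes past 4-fold. Cpe averaged 443944 normalized counts in the liver-named and 1965 in the brain-named table, Pcsk1n 226121 in liver-named and 714 in brain-named, and Penk, the enkephalin precursor, 49026 in liver-named and 249.6 in brain-named. Scg5, which assists a prohormone convertase, stood at 7.92. The lowest of the list was Pam, the amidating enzyme, at 2.29, followed by the neurotrophin Bdnf at 3.82. The growth hormone gene Gh, listed with choroid plexus, ependyma and pituitary, averaged 1652 in liver-named and 6.69 in brain-named. In that list 9 of 10 compared genes passed 4-fold on the liver-named side, and the prolactin receptor Prlr, which hepatocytes also express, was at -2.43.

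Monoamine and acetylcholine genes were mixed, with 11 of 18 past 4-fold on the liver-named side and 2 on the other, and a median of 4.36. Th, which makes the dopamine precursor, averaged 3545 normalized counts in the liver-named and 28.1 in the brain-named table, Drd2, a dopamine receptor, 4467 in liver-named and 35.0 in brain-named, and Chrm1, a muscarinic receptor, 4443 in liver-named and 28.3 in brain-named. Maob, an enzyme that breaks monoamines down and is also known from liver, ran in the opposite direction, with 847 in liver-named and 6447 in brain-named (-2.82).

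Myelin genes had 16 of 19 past 4-fold on the liver-named side and a median of 5.46. Cnp, an enzyme of myelin membranes, averaged 44773 normalized counts in the liver-named and 1336 in the brain-named table, and Mag, an adhesion protein of myelin, 26364 in liver-named and 101 in brain-named. Gjb1, the connexin of both myelin and hepatocytes, ran the other way with 7748 in liver-named and 86310.1 in brain-named and a ratio of -3.37. Astrocyte genes split: 13 of 20 passed 4-fold on the liver-named side and 3 on the brain-named side, with a median of 4.98. Mt3 averaged 105809 in liver-named and 282 in brain-named, and Aldoc, the brain aldolase, 104870 in liver-named and 1792 in brain-named. Aldh1l1, a folate enzyme used to mark astrocytes, instead averaged 5079 in liver-named and 81343 in brain-named, Apoe 2937 in liver-named and 23879 in brain-named and Agt, angiotensinogen, 12931 in liver-named and 60364 in brain-named, and these 3 are also known as hepatocyte genes. Ndrg2 and Clu were high in both tables, with ratios of 0.13 and 0.76, and Glul, glutamine synthetase, of 0.43.

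Microglial genes did not separate the 2 tables in the way of neuronal genes. Their median was 0.66, below the 1.38 of all genes, and 5 of 13 (38.5%) passed 4-fold on the liver-named side, near the 35.7% of all compared genes. The complement genes C1qa, C1qb and C1qc, which tissue macrophages in general express, had ratios of -0.34, -0.85 and -0.83. Csf1r, the receptor that macrophages need to survive, averaged 10479 normalized counts in the liver-named and 7137 in the brain-named table. Genes of brain endothelium and mural cells had a median of 0.92, also below that of all genes, with 4 of 15 (26.7%) past 4-fold on the liver-named side. Cldn5, the tight junction protein of brain vessels, averaged 10795 in liver-named and 2308 in brain-named, while Vtn, vitronectin, also a plasma protein of hepatocytes, averaged 979 in liver-named and 19906 in brain-named.

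Genes that mark brain regions passed 4-fold on the liver-named side in 21 of 24 cases, with a median of 4.22. Hpca, a calcium sensor of hippocampus, averaged 27494 normalized counts in the liver-named and 99.8 in the brain-named table, Pvalb, a marker of interneurons and Purkinje cells, 21796 in liver-named and 88.4 in brain-named, and Calb1, of Purkinje cells, 34221 in liver-named and 227 in brain-named. Nrn1 and the homeobox gene Prox1, which hepatocytes also use, were below 0 at -1.31 and -0.71. Among neural long noncoding RNAs, 8 of 10 passed 4-fold. Meg3, from an imprinted cluster, averaged 191845 in liver-named and 694 in brain-named, and Miat, a nuclear RNA of neurons, 10075 in liver-named and 37.2 in brain-named. Gas5, the host of several small nucleolar RNAs, was at 0.70.

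MicroRNA loci are rows of the same tables, and their tags come from uncapped poly(A) RNA of the locus or of an overlapping transcript, not from the mature microRNA. Of the 32 neural microRNA loci and hosts listed, 27 were listed at 0 in both tables and 3 hosts could be compared. Mir9-3hg averaged 8935 normalized counts in the liver-named and 46.6 in the brain-named table, Mir124-2hg 1338 in liver-named and 7.57 in brain-named and Mir124a-1hg 1369 in liver-named and 31.6 in brain-named, with log2 ratios of 7.69, 7.57 and 5.55. None of the 12 hepatic microRNA loci found could be compared. Outside the lists, Mir296 averaged 6588 in liver-named and 78.7 in brain-named and Mir27a 264 in liver-named and 8.27 in brain-named. Both had their highest share in the liver-named table. Mir203 averaged 122 in liver-named and 528 in brain-named and Mir5099 328 in liver-named and 4643 in brain-named. The share of Mir203 was highest in the kidney-named table, at 0.000907% beside 0.000719% in the brain-named table. Mir9-3, the locus in Mir9-3hg, was itself listed at 0 in both tables. For it and for Mir296, Mir27a and Mir203, mature sequences from RefSeq (GRCm38.p6) are printed to identify them. They run 5′ to 3′, with the seed, bases 2 to 8, in capitals.
miR-9-5p: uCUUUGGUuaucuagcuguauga
miR-9-3p: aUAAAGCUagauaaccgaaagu
miR-296-5p: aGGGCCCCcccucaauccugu
miR-296-3p: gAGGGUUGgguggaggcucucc
miR-27a-3p: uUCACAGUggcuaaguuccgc
miR-203-3p: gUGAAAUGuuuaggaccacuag

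On the hepatic side, all 19 compared carrier protein genes had a negative ratio and 18 were at least 4-fold higher in the brain-named table, with a median of -7.62. Rbp4, which carries retinol, averaged 2415 normalized counts in the liver-named and 582104 in the brain-named table, Gc, the vitamin D binding protein, 2741 in liver-named and 621170 in brain-named, and Ahsg, fetuin, 1192 in liver-named and 293311 in brain-named. Trf, transferrin, made up 0.181% of the liver-named and 2.35% of the brain-named sum (-3.70), and Ttr, which carries thyroid hormone, averaged 97245 in liver-named and 410669 in brain-named (-1.97). Both are also known from brain, Trf from oligodendrocytes and Ttr from choroid plexus. In the heart-named, kidney-named and spleen-named tables Ttr had shares of 0.00131%, 0.00889% and 0.00308%, all below its 0.143% in the liver-named table. Trf had shares of 0.0657%, 0.0808% and 0.167% there, the last close to its 0.181% in the liver-named table.

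Clotting genes were at least 4-fold higher in the brain-named table in 21 of 22 cases, with a median of -7.33. Plg, plasminogen, averaged 996 normalized counts in the liver-named and 212844 in the brain-named table, Serpinc1, antithrombin, 1153 in liver-named and 208286 in brain-named, and F2, prothrombin, 436 in liver-named and 106291 in brain-named. Pros1, protein S, was the gene within 4-fold at -0.72. Complement genes passed in 17 of 18 cases (median -6.46), with C3, the central component, at 2040.5 in liver-named and 458269 in brain-named. C4b stood at -4.99 and Serping1, the C1 inhibitor, at -4.22, and Masp1, a protease of the lectin pathway, lay within 4-fold at -1.59. Acute phase genes passed in 16 of 17 cases (median -7.23). Itih4, of the inter-alpha-trypsin inhibitor family, averaged 855 in liver-named and 161532 in brain-named and Hp, haptoglobin, 553 in liver-named and 126807 in brain-named, while the family member Itih3 was at -2.91 and Lcn2, an iron-scavenging lipocalin, at -1.02.

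Apolipoprotein genes had ratios that differed widely. Apoa2 averaged 1467 normalized counts in the liver-named and 284311 in the brain-named table, Apoc3 2187 in liver-named and 380795 in brain-named, and Apob, the scaffold of very-low-density lipoprotein, 569 in liver-named and 121459 in brain-named, with ratios of -7.49, -7.34 and -7.63. Apoe stood at -2.92 and the phospholipid transfer protein Pltp at 0.76. In all 16 of 19 passed 4-fold on the brain-named side, with a median of -4.56.

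The major urinary protein and male-biased list passed 4-fold on the brain-named side in 19 of 19 cases, with a median of -7.34, in tissue from males only. Mup3, a pheromone-binding protein gene, made up 0.0321% of the liver-named and 7.25% of the brain-named sum, the next highest share after Alb. Cyp7b1, an oxysterol hydroxylase that is also expressed in brain, had the smallest ratio of the list at -2.08. Cytochrome P450 genes passed in 24 of 26 cases (median -6.88). Cyp2e1, which oxidises ethanol, averaged 3058 normalized counts in the liver-named and 521473 in the brain-named table, Cyp2c29 345 in liver-named and 69786 in brain-named, and Cyp2d9 383 in liver-named and 56886 in brain-named. The reductase Por, which serves P450 enzymes in many cells, lay within 4-fold at -1.09.

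Conjugation genes passed 4-fold on the brain-named side in 17 of 19 cases (median -4.99). Ugt2b5, a glucuronosyltransferase, averaged 579 normalized counts in the liver-named and 143952 in the brain-named table, Gstp1, a glutathione transferase, 44184 in liver-named and 370029 in brain-named, and Gsta3 219 in liver-named and 51750.5 in brain-named. Gsta4, which clears lipid peroxidation products, was at 0.44. Bile acid genes passed in 22 of 23 cases (median -5.93). Slc27a5, which activates bile acids for conjugation, averaged 771 in liver-named and 155731 in brain-named, Cyp8b1, the 12-alpha-hydroxylase, 155 in liver-named and 36033 in brain-named, and Cyp7a1, the rate-limiting enzyme, 20.1 in liver-named and 2259 in brain-named. Hsd17b4, a peroxisomal enzyme of most cells, had the smallest ratio at -1.96.

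The enzymes of the urea cycle itself passed 4-fold on the brain-named side, while a carrier that supplies glutamate did not. Arg1, arginase, averaged 1006 normalized counts in the liver-named and 244660 in the brain-named table, Cps1, the entry enzyme, 426 in liver-named and 74665 in brain-named, and Otc, ornithine transcarbamylase, 358 in liver-named and 56566 in brain-named, with ratios of -7.82, -7.35 and -7.20. Ass1, which endothelium also uses, stood at -4.85, and the mitochondrial glutamate carrier Slc25a22 at 0.10 with 58019 in liver-named and 58442 in brain-named. The list passed 4-fold on the brain-named side in 9 of 12 cases, with a median of -4.04.

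Amino acid breakdown genes all passed 4-fold on the brain-named side, 26 of 26, with a median of -6.43. Tdo2, which opens the tryptophan ring, averaged 849 normalized counts in the liver-named and 159828 in the brain-named table, Bhmt, which remethylates homocysteine, 663 in liver-named and 127897 in brain-named, and Gnmt, which disposes of methyl groups, 482 in liver-named and 78412 in brain-named. Prodh, proline dehydrogenase, was nearest to 0 at -2.45. Genes of gluconeogenesis and glycogen passed in 17 of 18 cases (median -4.92). Fbp1, fructose bisphosphatase, averaged 804 in liver-named and 101244 in brain-named, and Pck1, phosphoenolpyruvate carboxykinase, 324 in liver-named and 67171 in brain-named. Ppp1r3c, a glycogen-targeting subunit also found in brain, lay within 4-fold at -0.41.

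Lipid genes stood nearer to 0 than plasma protein genes did. Fatty acid oxidation and ketogenesis passed 4-fold on the brain-named side in 20 of 25 cases, with a median of -3.37. Acaa1b, a peroxisomal thiolase, averaged 7006 normalized counts in the liver-named and 500929 in the brain-named table, a ratio of -6.05. Hadha and Hadhb, the subunits of the mitochondrial trifunctional protein, were at -1.48 and -0.87. Lipid and cholesterol synthesis passed in 8 of 24 cases with a median of -1.19. Scd1, a desaturase, averaged 13456 in liver-named and 415175 in brain-named (-4.84), whereas Fasn, fatty acid synthase, averaged 51477 in liver-named and 84602 in brain-named (-0.61) and Fdft1, squalene synthase, 42122 in liver-named and 35570.0 in brain-named (0.35).

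Hepatocyte transcription factors passed 4-fold on the brain-named side in 12 of 17 cases (median -3.90). Hnf4a, a nuclear receptor of hepatocyte identity, averaged 131 normalized counts in the liver-named and 5794 in the brain-named table, and Creb3l3, a factor of the fasting response, 232 in liver-named and 29022 in brain-named. Nr2f2, of stroma and endothelium, stood at -0.04. Growth signals and hepatokines passed in 12 of 14 cases (median -4.33), with Igfbp1 at 95.3 in liver-named and 15163 in brain-named and the insulin receptor Insr at 0.44. Liver cells other than hepatocytes had a median of -2.07, with 12 of 22 past 4-fold on the brain-named side. Cd5l, secreted by Kupffer cells, averaged 159.7 in liver-named and 20669 in brain-named, and Oit3, of sinusoidal endothelium, 88.3 in liver-named and 5022 in brain-named. Sox9, a bile duct factor that astrocytes also express, was the single hepatic-list gene past 4-fold on the liver-named side, at 4647 in liver-named and 574 in brain-named with a ratio of 3.12.

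For 33 functions a gene known from neural tissue was paired with a gene of related function known from liver. The first had the larger ratio in all 33 pairs, which the choice of well-known pairs favours. The difference had a median of 7.77 on the log2 scale and spanned 1.16 to 12.93. In 18 pairs the first gene was at least 4-fold higher in the liver-named and the second at least 4-fold higher in the brain-named table. In glycolysis, Pkm, a pyruvate kinase, averaged 74892 normalized counts in the liver-named and 1274 in the brain-named table and Pklr, the pyruvate kinase of liver, 319.8 in liver-named and 10431 in brain-named, with ratios of 5.99 and -4.92. Of the glycogen phosphorylases, Pygb stood at 5.27 and Pygl at -6.15. The largest difference was that of the arginases, with Arg2 at 5.12 and Arg1 at -7.82. Cyp46a1, which hydroxylates cholesterol in neurons, stood at 5.31 and Cyp7a1 at -6.70.

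Some pairs did not split. Both metallothioneins were higher in the liver-named table, Mt3 at 8.66 and Mt1, with 68151 normalized counts in the liver-named and 5629 in the brain-named table, at 3.71. The same was so for the tubulins Tubb3 and Tubb5 (4.42) and the phosphofructokinases Pfkp (5.88) and Pfkl (2.13). Both genes of the lipoprotein pair were higher in the brain-named table, Apoe at -2.92 and Apoa1 at -7.94. Eef1a2, an elongation factor of neurons and muscle, stood at 6.59, while its general counterpart Eef1a1 stood at 0.29. The smallest difference was between the glutamate transporters Slc1a2, known from astrocytes, at 1.79 and Slc1a1 at 0.63.

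**Figure D5:**
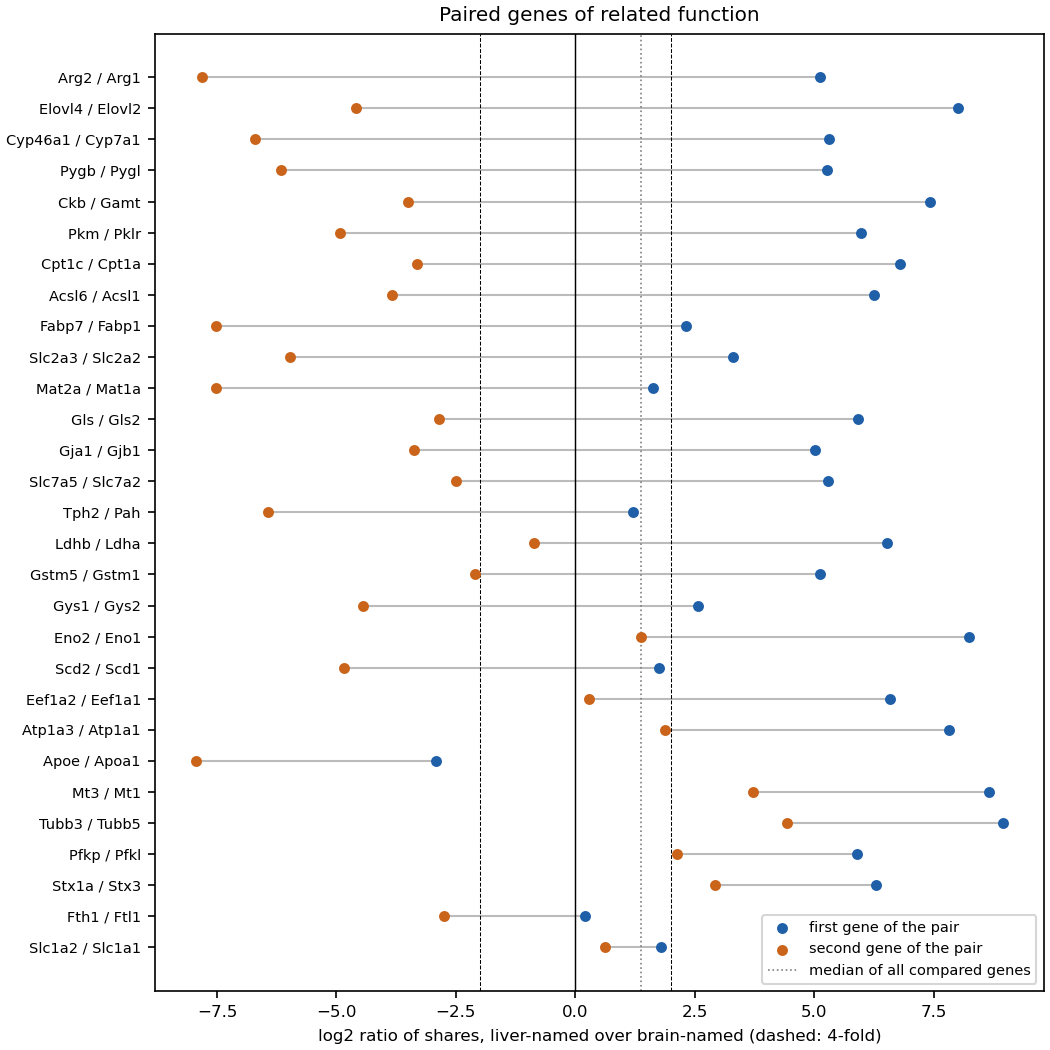
Log2 ratio of shares, liver-named over brain-named, for 29 of the 33 pairs of genes of related function, ordered by the difference within the pair, with the first gene in blue and the second in orange. The blue point lies right of the orange one in every row, by 1.16 for Slc1a2 and Slc1a1 and by 12.93 for Arg2 and Arg1.

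Genes that every cell uses lay close to an equal share. Of 173 compared genes in 6 shared lists, 163 (94.2%) were within 4-fold, beside 55.9% of all compared genes. The median was 0.78 for cytosolic ribosomal proteins, 0.76 for translation factors, 0.38 for nuclear subunits of oxidative phosphorylation, 0.53 for proteasome and ubiquitin genes and 1.05 for decapping and decay genes, all above 0 on the share scale and below 0 relative to the median gene at 1.38. Mitochondrially encoded genes had a median of -0.14, and mt-Nd6, the single protein gene of the light strand, stood apart at -3.47 with 1583 normalized counts in the liver-named and 18896 in the brain-named table. Whether counting used the strand is not given in the sources used here, so tags of mt-Nd6 and of transcripts opposite to it may be mixed. The highest genes with shares within 1.5-fold of each other included Mdh1, malate dehydrogenase, at 338505 in liver-named and 251823 in brain-named, Ndrg2 at 100551 in liver-named and 98869 in brain-named and Pdia6, an endoplasmic reticulum chaperone, at 91330.5 in liver-named and 89489 in brain-named. Among decay genes, Edc4, a scaffold of decapping, averaged 19994 in liver-named and 3579 in brain-named (2.59) and Ddx6, a helicase of decay granules, 21231 in liver-named and 5219 in brain-named (2.13), while Lsm4, of the ring that binds decapping targets, averaged 12615 in liver-named and 10539.6 in brain-named (0.37).

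Markers of other organs were also counted. Pancreatic acinar genes were at least 4-fold higher in the brain-named table in 12 of 17 cases, with a median of -3.53. This rested on the means estimated for Ftsj1_DF mice. In the means estimated for each genotype, 15 of 17 passed 4-fold on that side in Ftsj1_DF mice (median -4.42) and 0 of 17 in WT mice (median 0.01). Cela1, an elastase, averaged 9151 normalized counts in the liver-named and 82260.3 in the brain-named table, Pnlip, the pancreatic lipase, 14174 in liver-named and 49854 in brain-named, and Clps, its cofactor, 289 in liver-named and 12896 in brain-named. For Cela1 the estimated brain-named means were 153875 in Ftsj1_DF and 10646 in WT mice, and the liver-named means 9172 in Ftsj1_DF and 9130.4 in WT mice. In the authors' deposited tables the log2 fold change of Cela1 by genotype was 3.85 in the brain-named table (adjusted p = 0.142) and 0.01 in the liver-named table (adjusted p = 0.998). The authors' standard error in the brain-named table was 1.27 for Cela1 and 1.93 for Clps, which has no adjusted p there. For the amylase gene Amy2a5 the authors' fold change there was 2.63 (adjusted p = 0.0425). Values of single mice are not given, so how many Ftsj1_DF mice carry this is unknown. The summed share of the 3 acinar markers was 0.0364% in the liver-named, 0.215% in the brain-named and 9.71% in the spleen-named table. Cardiomyocyte and proximal tubule genes had medians of 0.93 each, B and T cell genes of 0.21, and erythroid genes of 0.03, all below the 1.38 of all genes. Slc22a6, a renal organic anion transporter, averaged 1952 in liver-named and 112 in brain-named, and Cyp2j5, a P450 of kidney and liver, 318 in liver-named and 24225 in brain-named. The part of other tissue in the values of the listed genes was not tested.

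Transcripts of each tissue were present at a low level in the other table. A set of 86 genes had liver-named means of 10000 or more, a share at least 4-fold higher there and less than 1% of that mean in every other table. Their median mean in the brain-named table was 0.427% of the liver-named value. It was 0.279%, 0.438% and 0.390% in the heart-named, kidney-named and spleen-named tables. For the 84 genes chosen in the same way from the brain-named table, the median was 0.480% in the liver-named and 0.150%, 0.344% and 0.298% in the heart-named, kidney-named and spleen-named tables. These genes were chosen by their values, so the levels describe them and test nothing. Whether such tags come from the tissue itself was not tested.

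The 5 tables together show where else the genes of each class were high, although the classes themselves fix part of this. Of the 5729 genes on the liver-named side, 4424 (77.2%) had their highest share of all 5 tables there, and of the 1345 on the brain-named side 900 (66.9%) had theirs there. The kidney-named table was highest for 9.43% of the liver-named side, 21.9% of the brain-named side and 23.8% of all compared genes. Other features took no part in the comparison. Protein-coding genes on the liver-named side spanned a median of 30.7 kb of genome in the RefSeq annotation, those on the brain-named side 17.6 kb and all compared genes 27.4 kb. On the X chromosome, 43.9% of 560 compared genes were on the liver-named side and 4.46% on the brain-named side, beside 35.7% and 8.38% of all compared genes. Among long noncoding RNAs the shares were 47.1% and 10.1% of 754. These are descriptions over genes, which are not independent replicates.

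Promoters on the brain-named side held fewer CpG dinucleotides than those of all compared genes, while those on the liver-named side were close to all compared genes. The 250 bases upstream of the start held a median of 13 CpG dinucleotides on the liver-named side (5357 windows of 4046 genes). The median was 5 on the brain-named side (1195 windows of 931 genes) and 14 over all compared genes (14581 windows of 11318 genes). A gene with several windows counts more than once, and genes without a window are left out. Over all promoters in the RefSeq table the median was 6. The motif GTTAAT was found in 4.24% of liver-named windows and 10.5% of brain-named windows, beside 4.76% over all compared genes and 6.43% of all 32851 promoters in the RefSeq table. TATAAA was found in 6.98% and 15.5%, beside 7.41% over all compared genes and 12.4% of all promoters. For GGGCGGG the shares were 38.5% and 23.1%, beside 38.6% and 23.4%. CCAAT differed least, at 32.7% and 37.1%, beside 34.4% and 33.8%. A match is a run of letters and does not show that a factor binds there.

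The authors' genotype fold changes took no part in the choice of genes, but that choice used means pooled over both genotypes. A gene raised in 1 genotype can enter a side through it, as acinar genes did on the brain-named side. Both sides were also chosen for a higher share in the table tested, so the counts below are not independent of the choice. Of 5677 liver-named-side genes tested in the liver-named table, 12 (0.211%) had an adjusted p under 0.05 there, beside 0.203% of all 22211 genes tested. The fold change was positive for 8 of the 12, beside 19 of the 27 such genes among all compared genes. Of 1338 brain-named-side genes tested in the brain-named table, 13 (0.972%) had an adjusted p under 0.05, beside 0.414% of all 17619 tested. It was positive for 9 of the 13, beside 48 of the 58 such genes among all compared genes. Differences between these shares were not tested. Which genotype is on top of this fold change is not given in the sources used here, and it was taken as Ftsj1_DF over WT since Ftsj1 has a negative value. Estimated for each genotype apart from the authors' deposited means and fold changes, Alb took 0.112% of the liver-named and 25.6% of the brain-named sum in Ftsj1_DF mice, and 0.133% and 18.3% in WT mice. Snap25 had a log2 ratio of 7.98 in Ftsj1_DF mice and 7.83 in WT mice.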

How the data were processed

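Uncapped poly(A) RNA of whole organs was sequenced as short tags, per the labels' protocols. Tags were counted with featureCounts of Subread 2.0.3 on GRCm39 and modelled with DESeq2, per the submitters' processing notes. The aligner and the DESeq2 version are not given in the sources used here. Each deposited table holds, per gene, the authors' mean normalized count over all libraries of an organ, a signal already divided by size factors. It also holds the authors' log2 fold change by genotype with its standard error, a deposited Wald score, and the deposited p-value with its adjusted p-value.

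Here, means were divided by their table's sum and compared as shares, with Python 3.11.15, numpy 2.4.6 and pandas 2.3.3. The ratio was tested on simulated data, with both simulated tables drawn from the liver-named means. That simulation does not cover a table whose sum is led by Alb, so it does not bear on the counts by share. Depth per library is unknown, so no interval of counting error is given. Means per genotype were derived from the deposited mean and fold change, with 3 libraries per genotype. Biotypes, spans, promoters and microRNAs came from RefSeq (GRCm38.p6), matched by symbol for 15480 of 16041 genes (96.5%).

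The rule for named genes took Alb, Snap25, Camk2a and Ftsj1, the 15 highest shares of each table, the 12 largest ratios of each direction among genes of mean 5000 or more with a descriptive symbol, up to 6 members per list with the highest share on its side and the 2 most against it, all pairs, the 10 highest genes within 1.5-fold, genes at 0 in 1 table, and the genes next to the minimum. The last were Zfp69 just inside, with means of 100.018 in the liver-named and 55.2 in the brain-named table, and 0610009L18Rik just outside, with 99.99 and 26.8. Some genes that the rule takes are left unprinted, and some are not reported here, so 4 of the 33 pairs are not drawn. Dalir, Nefl, P2ry12, Hamp, Eif2s2, Mir296, Mir27a, Mir203 and Mir5099 were named after their values were seen. The lists, the pairs and the comparison were chosen with earlier results of these data known.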

Additional observations from a re-analysis of the deposited data

How the results depend on the processing

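The counts of genes at least 4-fold higher, 5729 in the liver-named and 1345 in the brain-named table, depended on scaling and on the gene set. Centred on the median of the 11258 genes at 100 or more in both tables (1.06 on the log2 scale), they were 3222 and 2140, 60.1% of them on the liver-named side, and the neuron median was 5.74 in place of 6.80. A minimum mean of 1000 gave 3276 and 881, and with 100 or more required in both tables the counts were 2895 and 723. At 2-fold the counts were 9473 and 2087, and at 16-fold 2044 and 648. With a minimum of 20, with 1 added to each mean, with undivided means, in Ftsj1_DF mice alone, in WT mice alone, without mitochondrial genes and gene models, and without the 10 highest genes in the sum, both counts stayed within 1.5 times. The carrier protein median, -7.62, lay between -8.68 and -7.58 over all settings run on it. Of the 451 values followed, 71 changed sign under centring and 36 without the 10 highest genes. In the Ftsj1_DF and WT means 14 and 13 did. None of the followed values past 4-fold changed sign, with genes kept by their mean in each setting. Genes past 4-fold that were not followed did, such as Try4 at -3.68 in pooled and 0.01 in WT means. Over all genes past 4-fold, both genotypes had the same direction for 5726 of the 5729 and 1328 of the 1345. No paired analysis was possible because the tables hold no values per library, and leaving out single replicates was not run for the same reason. The pancreatic acinar median of -3.53 was -4.42 in Ftsj1_DF and 0.01 in WT means over the same 17 genes. With the genes held the same, that median thus changed sign in WT means. Depth per library is unknown, so no limit from depth can be given.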
